A study of Mus musculus with 6 samples.

Results

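The genes of the MHC class II presentation pathway were followed in RNA-seq libraries of sorted brain microglia, from mice of the strains MRL/lpr and MRL/mpj. They were found as the rows of the deposited count table whose Ensembl identifiers map to Cd74, H2-Aa, H2-Ab1, H2-Eb1, H2-Eb2, H2-Ea-ps, H2-DMa, H2-DMb1, H2-DMb2 and Ciita, which is 10 of 55401 rows. The genes were picked with the difference between the strains already known, so the differences below are a description of the members and carry no test. The mean level of 9 was higher in MRL/lpr and that of H2-Eb2 was lower, and the differences ran from 1.37-fold for H2-DMb1 to 25.3-fold for H2-Ea-ps among the higher genes.

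The study sequenced these cells to look for regulators of microglial activation in a lupus-prone strain. There were 3 libraries per strain, all from untreated mice aged 6 weeks. MRL/lpr mice carry the lpr allele of Fas on the MRL background, and MRL/mpj mice are the control strain of that background without it. Per the study's methods, the cells were taken from digested, Percoll-separated brain through CD11b, an integrin that other myeloid cells share. The methods name female mice of both strains, and neither they nor the labels give the number of animals pooled per library, so the spread between libraries may be partly technical.

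MHC class II molecules are pairs of an alpha and a beta chain that show peptides from endosomes to CD4+ T cells. The chains assemble around the invariant chain, Cd74, which is cut away in the endosome, and the DM molecule then exchanges its last fragment for a peptide. Transcription of the whole set rests on the coactivator Ciita, which binds a complex of RFX, NF-Y and CREB-family factors at the X and Y boxes of the promoters. Interferon gamma induces Ciita, and resting microglia are known for low class II levels that rise on activation.

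Library depth was alike in both strains, from 45481609 to 49846634 counts. The mitochondrial share was 3.06% to 3.49% in MRL/lpr and 5.84% to 6.38% in MRL/mpj. The noncoding RNA gene CT010467.1 took 6.38% of MRL/lpr replicate 3 and 0.169% to 0.457% of the other libraries. Fas, the gene of the lpr allele, had 461, 282 and 298 counts in MRL/lpr and 426, 432 and 362 in MRL/mpj. These ranges overlap, so the Fas count does not tell the labels apart. Counts of 4 were far more frequent than counts of 3 or 5 (1138 to 1288 genes per library against 320 to 415 and 211 to 261), as if each read pair had been entered as 4 counts. The precision of low counts is lower than their size shows for that reason. In bulk libraries such as these, a change in the number of cells that carry a transcript and a change in the amount per cell cannot be told apart.

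For 6 members there is a promoter window in the RefSeq table (assembly GRCm38.p6). The letters TGATTGG, an extended Y box, stand on the strand of the gene in the windows of 5 members. These windows are shown as the 150 bases that end just before the start of transcription, because they let the regulatory letters of the genes be read beside levels that differ. Capitals mark the extended Y box, the letters AACTGATG of an X box, and in H2-Aa the letters TGACGTCA of a cAMP response element.
H2-Aa, chr17:34287824-34287973, minus strand: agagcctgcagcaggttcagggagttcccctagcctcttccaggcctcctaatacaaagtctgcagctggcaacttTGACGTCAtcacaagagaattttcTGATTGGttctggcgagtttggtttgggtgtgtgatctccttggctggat
H2-Eb1, chr17:34305717-34305866, plus strand: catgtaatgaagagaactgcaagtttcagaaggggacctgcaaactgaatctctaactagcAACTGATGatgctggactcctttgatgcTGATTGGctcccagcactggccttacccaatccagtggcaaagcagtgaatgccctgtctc
H2-Eb2, chr17:34325525-34325674, plus strand: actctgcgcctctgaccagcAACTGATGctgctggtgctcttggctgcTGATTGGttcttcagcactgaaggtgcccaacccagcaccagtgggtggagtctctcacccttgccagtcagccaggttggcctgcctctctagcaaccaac
H2-DMb1, chr17:34153041-34153190, plus strand: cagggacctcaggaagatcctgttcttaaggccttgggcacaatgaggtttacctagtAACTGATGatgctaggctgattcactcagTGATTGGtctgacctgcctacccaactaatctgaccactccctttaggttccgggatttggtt
H2-DMb2, chr17:34145099-34145248, plus strand: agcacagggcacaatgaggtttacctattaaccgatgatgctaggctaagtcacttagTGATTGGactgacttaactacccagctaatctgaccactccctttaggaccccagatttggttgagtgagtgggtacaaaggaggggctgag

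The 3 windows with AACTGATG, those of H2-Eb1, H2-Eb2 and H2-DMb1, have 20, 20 and 21 bases between it and the extended Y box. H2-Aa has 16 bases between the cAMP response element and its Y box. Read on both strands over all 32851 windows of 300 bases, TGATTGG occurred in 7.82%, AACTGATG in 0.776% and TGACGTCA in 1.79%. On the strand of the gene alone, as marked above, the shares were 4.01%, 0.432% and 1.79%. TGATTGG contains the shorter core ATTGG, which was in 37.4% of windows. AACTGATG and TGATTGG stood together on the gene strand in 6 windows, or 0.0183%, of which 3 were members. The X box letters were picked after these windows had been read, so their share among members is a description only. H2-DMa has 2 windows, neither with the extended Y box. The letters are those of the C57BL/6J reference, and no sequence of the MRL strains was used here. H2-Eb2, which has the same box letters and the same gap as H2-Eb1, was the one member lower in MRL/lpr.

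Ciita, the coactivator that switches the set on, was the scarcest member in MRL/mpj. It lies on chromosome 16 (chr16:10480059-10528418, plus strand), away from the class II cluster. Its counts were 165, 180 and 166 in MRL/lpr and 64, 55 and 70 in MRL/mpj. Every MRL/lpr library was above every MRL/mpj library. Scaled to a library of 1000000 counts with TMM factors (CPM), the level was 3.77 ± 0.24 in MRL/lpr and 1.23 ± 0.12 in MRL/mpj (SD, n = 3 each, as in all values below). The log2 fold change was 1.61 with a standard error of 0.25, so this gene's difference is among the less precise. Per length its level was 0.337 FPKM against 0.117 FPKM, the lowest in MRL/mpj, and in MRL/lpr only H2-Eb2 stood below it.

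Cd74, the invariant chain that fills the groove during assembly, was by far the most abundant member in both strains (chr18:60803848-60812652, plus strand). The MRL/lpr libraries held 36801, 38884 and 33050 counts and the MRL/mpj libraries 9017, 9643 and 9328. The groups were far apart and each was tight, with a coefficient of variation of 2.88% and 5.02%. The level was 799.9 ± 23.0 CPM in MRL/lpr and 183 ± 9.17 CPM in MRL/mpj, a log2 fold change of 2.13 with a standard error of 0.06. Per length, Cd74 reached 408 ± 20.1 FPKM and 101 ± 5.15 FPKM. It made up 76.5% to 79.6% of the summed FPKM of the 10 members in MRL/lpr and 70.3% to 74.0% in MRL/mpj.

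The classical chains H2-Aa and H2-Ab1 are the alpha and beta chain of I-A, and they differed by unequal amounts. H2-Aa (chr17:34282744-34287823, minus strand) had 3000, 3281 and 2992 counts in MRL/lpr and 807, 677 and 699 in MRL/mpj. The strains did not overlap, at 68.4 ± 4.06 and 14.2 ± 1.28 CPM. H2-Ab1 (chr17:34257689-34269419, plus strand) had 1601, 1714 and 1961 counts against 1267, 1223 and 1419. Here too the strains stood apart, but the lowest MRL/lpr library was close to the highest MRL/mpj library. The H2-Ab1 level was 39.1 ± 6.85 and 25.5 ± 1.56 CPM, and its log2 fold change of 0.62 (standard error 0.13) was far below the 2.26 (standard error 0.10) of its partner.

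The ratio of H2-Aa to H2-Ab1 per length therefore differed between the strains. It was 1.27, 1.30 and 1.03 in the MRL/lpr libraries and 0.431, 0.376 and 0.333 in the MRL/mpj libraries. The alpha chain was listed above the beta chain in each MRL/lpr library and below it in each MRL/mpj library.

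H2-Eb1 and H2-Ea-ps code for the beta and alpha chain of I-E. H2-Eb1 (chr17:34305867-34316674, plus strand) had 2370, 2611 and 2284 counts in MRL/lpr and 854, 737 and 838 in MRL/mpj, or 53.5 ± 2.72 and 15.8 ± 0.969 CPM. H2-Ea-ps (chr17:34341959-34344645, minus strand) had 1966, 1936 and 2103 counts against 87, 106 and 76. The alpha chain was near the bottom of the set in MRL/mpj and near its top in MRL/lpr, at 1.76 ± 0.335 and 44.4 ± 5.12 CPM. Its log2 fold change of 4.66 (standard error 0.17) was the largest of the members, against 1.76 (standard error 0.09) for H2-Eb1. The annotation classes it as a polymorphic pseudogene, because the gene is known to be silent in some mouse haplotypes, the one of the reference strain among them, and working in others.

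The I-E pair was further from balance in MRL/mpj than the I-A pair. H2-Ea-ps over H2-Eb1, in FPKM, was 1.56, 1.39 and 1.73 in MRL/lpr and 0.188, 0.267 and 0.169 in MRL/mpj. All MRL/lpr libraries thus had more alpha than beta transcript, and all MRL/mpj libraries several times less.

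H2-Eb2, another and usually weakly expressed beta chain gene of the E group, went the other way (chr17:34325665-34341412, plus strand). It was listed at 0, 18 and 6 counts in MRL/lpr and at 494, 427 and 504 in MRL/mpj. The MRL/lpr counts are worth few read pairs, and 1 library had none. The level was 0.175 ± 0.193 CPM against 9.28 ± 0.640 CPM, and the fitted log2 fold change was -5.70 with a standard error of 0.71. That value rests on MRL/lpr replicate 2, which held most of the reads: without it the fit gave -7.04, so the size of this difference is loosely set. In MRL/mpj, H2-Eb2 reached 2.54 FPKM, close to H2-DMa and above H2-Ea-ps. Within the E group, H2-Eb2 was thus the lowest gene in MRL/lpr and H2-Ea-ps the lowest in MRL/mpj, although H2-Ea-ps there (1.56 FPKM) was far above H2-Eb2 in MRL/lpr (0.04 FPKM).

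H2-DMa, H2-DMb1 and H2-DMb2 code for the DM peptide exchanger, and their log2 fold changes ran from 0.45 to 1.28. H2-DMa (chr17:34119541-34139101, plus strand) had 1021, 1069 and 1110 counts in MRL/lpr and 613, 446 and 438 in MRL/mpj, or 23.7 ± 2.56 and 9.75 ± 1.9 CPM. The strains did not overlap, and the log2 fold change was 1.28 with a standard error of 0.16. The beta chain genes differed less than this alpha chain gene. H2-DMb2 (chr17:34143307-34151555, plus strand) had 779, 747 and 808 counts against 591, 526 and 419, with a log2 fold change of 0.78 (standard error 0.16). H2-DMb1 (chr17:34153072-34160230, plus strand) had 708, 714 and 814 counts against 633, 557 and 669, with a log2 fold change of 0.45 (standard error 0.14). The lowest MRL/lpr library of H2-DMb1 was little above the highest MRL/mpj library.

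The DM beta genes are near copies, which limits what can be said of each. Of the 31-base words in the transcripts of H2-DMb1, 31.4% also occur in transcripts of H2-DMb2, and 36.6% of those of H2-DMb2 occur in another gene. For H2-DMa the share was 9.23%, all with the neighbouring Brd2, and for the other 7 members it was 0% to 2.77%. The sources used here do not state how reads in shared or overlapping stretches were assigned, so the split between H2-DMb1 and H2-DMb2 is uncertain. H2-DMa over the sum of both beta genes, in FPKM, was 0.348 ± 0.0136 in MRL/lpr and 0.216 ± 0.0277 in MRL/mpj.

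**Figure D1:**
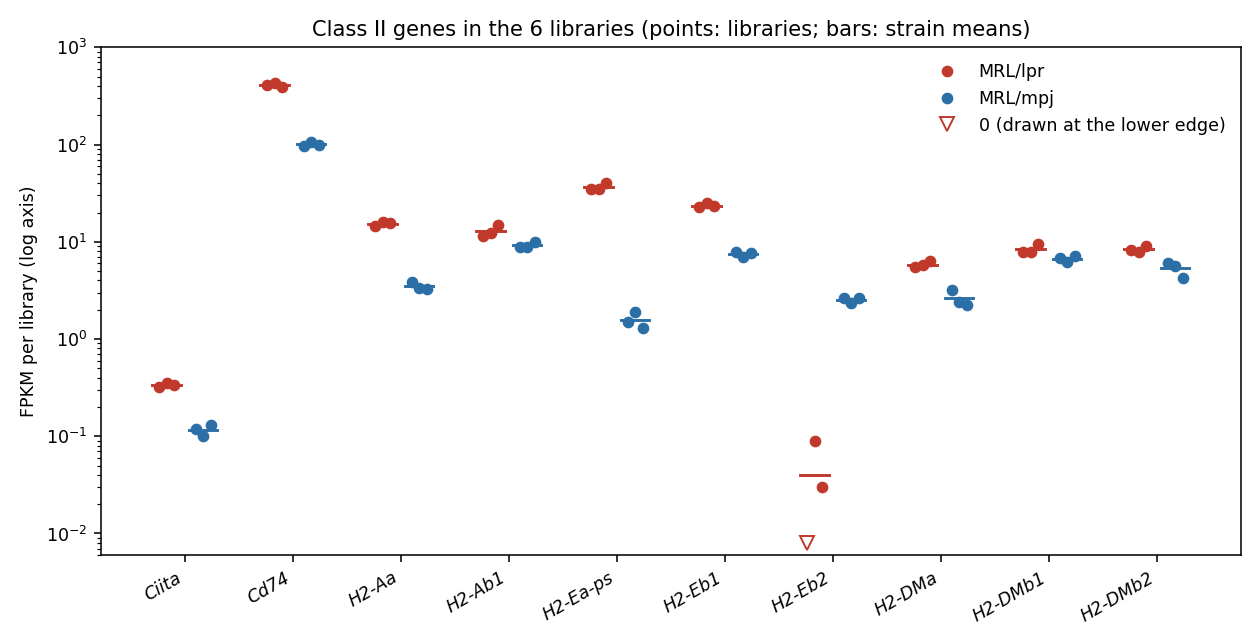
Level of each class II gene in FPKM (log axis), with 1 point per library and bars at the mean of the 3 libraries of a strain; the single library at 0 is drawn as an open triangle at the lower edge. Cd74 stands above all others in both strains, and H2-Eb2 is the one gene whose MRL/lpr points lie below the MRL/mpj points.

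The order of the levels per length was not the same in both strains. In MRL/lpr the mean FPKM fell from Cd74 (408) through H2-Ea-ps (36.6), H2-Eb1 (23.5), H2-Aa (15.4), H2-Ab1 (12.97), H2-DMb2 (8.43), H2-DMb1 (8.39), H2-DMa (5.84) and Ciita (0.337) to H2-Eb2 (0.04). Of these neighbours, H2-Aa and H2-Ab1 overlapped between libraries, as did H2-DMb2 and H2-DMb1. In MRL/mpj it fell from Cd74 (101) through H2-Ab1 (9.20), H2-Eb1 (7.55), H2-DMb1 (6.69), H2-DMb2 (5.33), H2-Aa (3.48), H2-DMa (2.61), H2-Eb2 (2.54) and H2-Ea-ps (1.56) to Ciita (0.117). There, H2-Eb1 overlapped with H2-DMb1, and H2-DMa with H2-Eb2. H2-Ea-ps thus stood next to the top of the order in MRL/lpr and next to the bottom in MRL/mpj.

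The ratio of the invariant chain to 4 summed chains, H2-Eb2 left out, differed by less than the spread between libraries. Cd74 over the sum of H2-Aa, H2-Ab1, H2-Ea-ps and H2-Eb1, in FPKM, was 4.62 ± 0.417 in MRL/lpr and 4.65 ± 0.373 in MRL/mpj. The range of 4.14 to 4.89 in MRL/lpr overlapped that of 4.38 to 5.07 in MRL/mpj. H2-Eb2, which this sum leaves out, was at 2.54 FPKM in MRL/mpj and 0.04 FPKM in MRL/lpr. Counting it would lower the ratio in MRL/mpj and hardly change that in MRL/lpr, so the likeness holds for these 4 chains only. H2-DMb1 over H2-DMb2 was 0.994 ± 0.0509 and 1.29 ± 0.322, with MRL/mpj replicate 3 highest at 1.66.

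**Figure D2:**
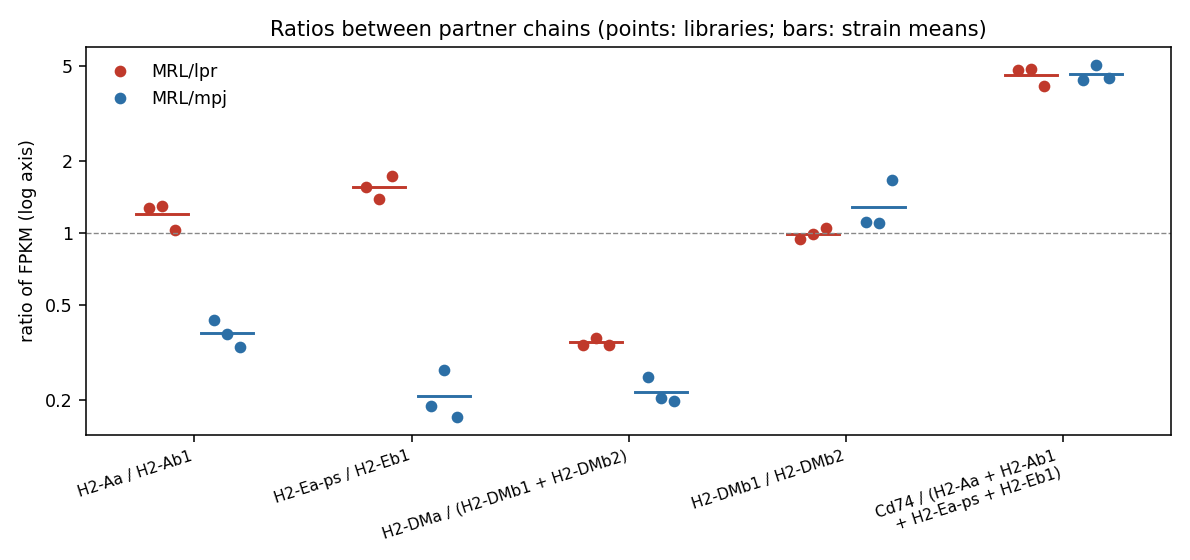
Ratios of FPKM between partner chains (log axis), 1 point per library with bars at the strain means and a dashed line at 1. The ratios H2-Aa to H2-Ab1 and H2-Ea-ps to H2-Eb1 lie above 1 in all MRL/lpr libraries and below 1 in all MRL/mpj libraries. Cd74 over the 4 summed chains, which leave out H2-Eb2, overlaps between the strains.

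Over all 10 genes, the strains did not overlap in any. Of these, 9 were higher in MRL/lpr, where 19.6% of the 19554 genes tested were higher without overlap, and 1 was lower, where 19.4% were. At an adjusted p under 0.05 in the quasi-likelihood test of edgeR (Benjamini-Hochberg adjustment), the rule by which genes are called below, 8 were called higher and 1 lower. Among all genes tested 11.1% were called higher and 9.06% lower. H2-DMb1 was the member not called. The genes were chosen from this contrast, so nothing is read from these counts. The median log2 fold change of the members was 1.45, beside -0.01 over all genes tested, and their summed level was 1030 to 1087 CPM in MRL/lpr and 278 to 288 CPM in MRL/mpj.

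The larger differences hardly depended on how the counts were scaled or tested, while the smaller ones shifted by more of their size. Scaling by library size alone lowered the median log2 fold change of all genes by 0.124, from -0.01 to -0.13. The members followed it, with Cd74 at 2.01 and H2-Aa at 2.14. H2-Ab1 went from 0.62 to 0.49 and H2-DMb1 from 0.45 to 0.32. The ratio of the authors' mean FPKM gave 2.01 for Cd74 and 2.14 for H2-Aa as well. No member changed direction under any alternative or without any 1 library. With the strains apart in every member, leaving out 1 library could hardly turn a direction.

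**Figure D3:**
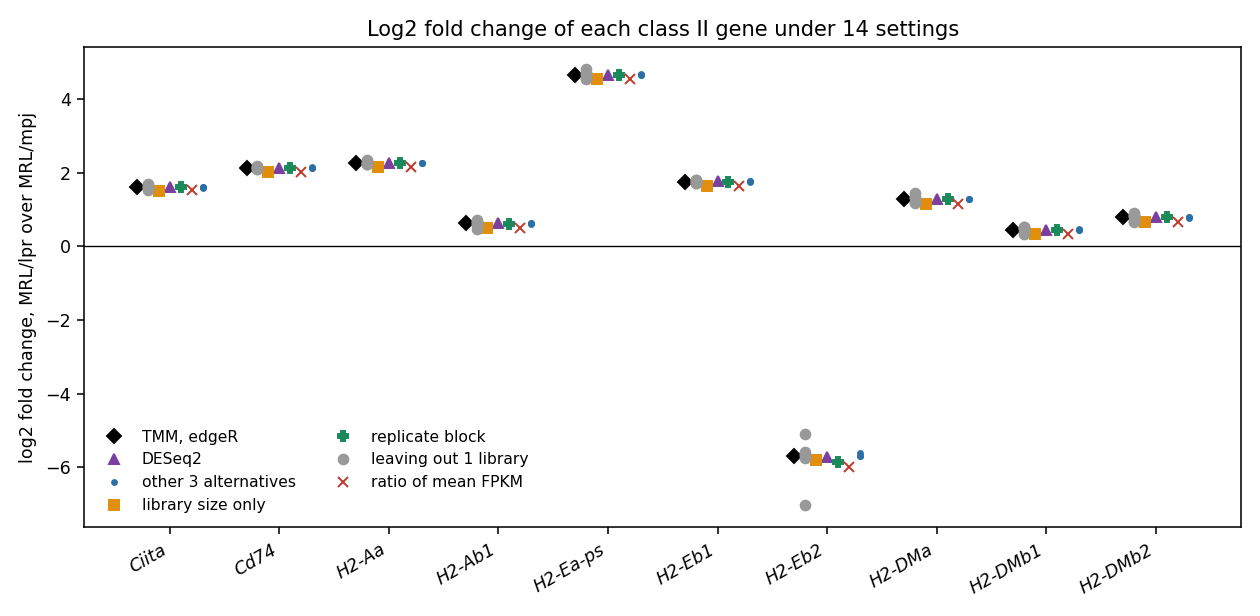
Log2 fold change (MRL/lpr over MRL/mpj) of each class II gene as reported, under the alternative tests and scalings, as the ratio of mean FPKM and without each library in turn. The values of each gene cluster tightly on 1 side of 0, and H2-Eb2 has the widest range, from -7.04 to -5.10 without single libraries.

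Within a strain the members did not vary as 1 block. After subtraction of the strain mean of log2 CPM, 15 of 21 pairs among the 7 members with at least 2 CPM in each library had a positive Pearson r over the 6 libraries, and the median r was 0.30. H2-Ab1 with H2-DMb1 reached 0.946 and H2-Aa with H2-DMa 0.942. All 6 pairs with Cd74 were negative, down to -0.478 with H2-DMb1. In MRL/lpr, replicate 3 was the highest of the 3 in 7 of the 10 genes, H2-Aa, H2-Ab1, H2-Ea-ps, H2-DMa, H2-DMb1, H2-DMb2 and Ciita. This is the library with the large share of CT010467.1 and the lowest scaling factor (0.920), and the part of that in the pattern was not tested. All the r values rest on 6 libraries that share their scaling, and they are given as a description.

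The genes whose profile over the 6 libraries was most like the mean profile of the members included Ivd, Rnf122, Dbnl and Tmem164, among 9290 other genes with a mean of at least 10 CPM. Their Pearson r ran from 0.994 to 0.996. After subtraction of the strain means, they were Mtmr9, Kank2, Fam71a, Nsmce4a and Ptpn6, with r from 0.992 to 0.999. None of those named was in both sets. The mean profile included H2-Eb2, whose deviations from the strain mean in MRL/lpr were -1.84, 1.52 and 0.32 log2 units. Its pooled SD was 1.20, beside 0.219 or less in each other member. In MRL/lpr replicates 1 and 2 the second profile thus followed largely H2-Eb2, a gene of few reads there. The r values rest on 6 libraries and are a description.

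The genes that control class II transcription were called in a share near that of all genes. Of 25 genes of the enhanceosome and of Ciita regulation, all tested, 5 were called higher and 1 lower (3 lower without MRL/lpr replicate 3), which is 24% of the list beside 11.1% higher and 9.06% lower of all genes tested, and the median log2 fold change was 0.09. Nlrc5, the class I counterpart of Ciita, rose most, from 482, 459 and 331 counts in MRL/mpj to 1530, 1766 and 1369 in MRL/lpr, a log2 fold change of 2.04 (standard error 0.16). The kinase gene Jak1, whose product works at the interferon gamma receptor, rose by 0.53 (standard error 0.06), and the histone acetyltransferase gene Crebbp by 0.37 (standard error 0.07). Ifngr1, the ligand-binding chain of the interferon gamma receptor, was lower, with a log2 fold change of -0.76 (standard error 0.07), from 20866, 19719 and 20243 counts to 10837, 11825 and 9204.

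Of the RFX subunits that sit on the X box, Rfx5 had 2534, 2075 and 1826 counts in MRL/lpr and 1777, 1816 and 1808 in MRL/mpj. Its rise of 0.42 was called (adjusted p = 0.0166, edgeR), but not without MRL/lpr replicate 1 (0.0542) or MRL/mpj replicate 1 (0.0689), 2 (0.0502) or 3 (0.0640), nor with scaling by library size (0.0854). Rfxap and Rfxank were not called, with log2 fold changes of -0.17 and -0.33, but Rfxank was called lower with scaling by library size (adjusted p = 0.0377, edgeR) and without MRL/lpr replicate 3 (0.0371). Neither were Irf1, at 0.69, and Irf8, at 0.35. In both genes the libraries of a strain were far apart, with 6555, 3163 and 3567 counts of Irf1 in MRL/mpj and 24250, 14245 and 14248 of Irf8 in MRL/lpr. Without MRL/mpj replicate 1, Irf1 was called, at 1.08 (adjusted p = 0.000993, edgeR).

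The genes of endosomal processing, among them enzymes that cut the invariant chain and the antigens, were called in both directions. Of 13 genes, 2 were called higher and 2 lower, with a median log2 fold change of -0.09. Leaving out replicate 3 of MRL/lpr brought the number called lower to 4, and leaving out replicate 2 of MRL/lpr, or replicate 1 or 2 of MRL/mpj, brought it to 1. The aspartic protease gene Ctse rose by 0.73 (standard error 0.13) and Ctsf, a cysteine protease of macrophages, by 0.48 (standard error 0.10). Cst3, an inhibitor of cysteine cathepsins, was lower at -0.40 (standard error 0.07). Ctsb fell by 0.23 (standard error 0.05), a call that was lost without MRL/lpr replicate 2, MRL/mpj replicate 1 or MRL/mpj replicate 2 (adjusted p = 0.0534, 0.0718 and 0.0654 with edgeR).

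The enzymes best known for cutting Cd74, and also Ifi30, were not called in the comparison of all 6 libraries. Ctss, the main invariant chain protease of myeloid cells, had 211400, 207891 and 165946 counts in MRL/lpr and 217615, 210118 and 207626 in MRL/mpj, a log2 fold change of 0.05 with a standard error of 0.06. Ctsl was at -0.08, Lgmn at 0.02 and the thiol reductase gene Ifi30 at -0.15. These values are near the median of all genes, and for Ctss and Lgmn their sign turned with scaling by library size, as that of Ctsl did without MRL/lpr replicate 3. Without that library Ctss was called higher, at 0.11 (adjusted p = 0.0456, edgeR).

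The genes of DM regulation, trafficking and surface turnover were mixed. Of 18 genes, 4 were called higher and 3 lower, with a median log2 fold change of 0.10. H2-Ob and H2-Oa, the beta and alpha chain of the DO molecule that holds DM back, were both higher. H2-Ob had 4719, 4733 and 3660 counts in MRL/lpr and 1746, 2404 and 2576 in MRL/mpj, and it rose by 1.13 (standard error 0.14). H2-Oa had 580, 617 and 644 counts against 400, 501 and 351 and rose by 0.73 (standard error 0.18), a call lost without MRL/mpj replicate 1 (adjusted p = 0.0672, edgeR) or replicate 3 (0.0636). The RefSeq windows of both DO genes hold the extended Y box as well.

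The tetraspanin genes Cd9 and Cd63, whose proteins gather class II molecules in membrane domains and late endosomes, had log2 fold changes of -1.21 and -1.13 (standard errors 0.07 and 0.08). March8, a ubiquitin ligase that removes class II from the surface, fell by 0.84 (standard error 0.17). Its relative March1, the ligase best known for turning over class II in myeloid cells, had a log2 fold change of -0.26 and was not called. Without MRL/mpj replicate 1 or without replicate 3, 2 genes of the whole list were called higher.

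Of 12 partners of T cell recognition, 10 were tested, and 7 of these were called higher and 1 lower, with a median log2 fold change of 1.05. Cd80, a costimulatory ligand of CD28, had 1038, 950 and 836 counts in MRL/lpr and 262, 321 and 395 in MRL/mpj, a rise of 1.70 (standard error 0.16). Cd274, the ligand of PD-1, rose by 1.11 (standard error 0.08). Cd86, the other CD28 ligand, was not called, at -0.14 (standard error 0.06), with 7017, 6607 and 5896 counts against 8174, 7714 and 8388. With scaling by library size it was called lower, at -0.26 (adjusted p = 0.0272, edgeR).

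Cd4, whose protein binds class II, rose by 1.72 (standard error 0.37) from low counts, 35, 45 and 35 in MRL/mpj and 133, 72 and 129 in MRL/lpr. Lag3, an inhibitory receptor for class II, was lower, with a log2 fold change of -1.09 (standard error 0.08), from 25529, 24339 and 24771 counts to 10276, 9953 and 10656. Cd40, whose ligand is on helper T cells, rose by 1.07, but its call (adjusted p = 0.0268, edgeR) was lost without any 1 of 5 libraries, namely MRL/lpr replicate 1 (0.0605), 2 (0.0554) or 3 (0.0678) and MRL/mpj replicate 2 (0.0838) or 3 (0.0819). Fgl1, another ligand of Lag3, was at 0 in all 6 libraries, which allows up to 3 read pairs in each.

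**Figure D4:**
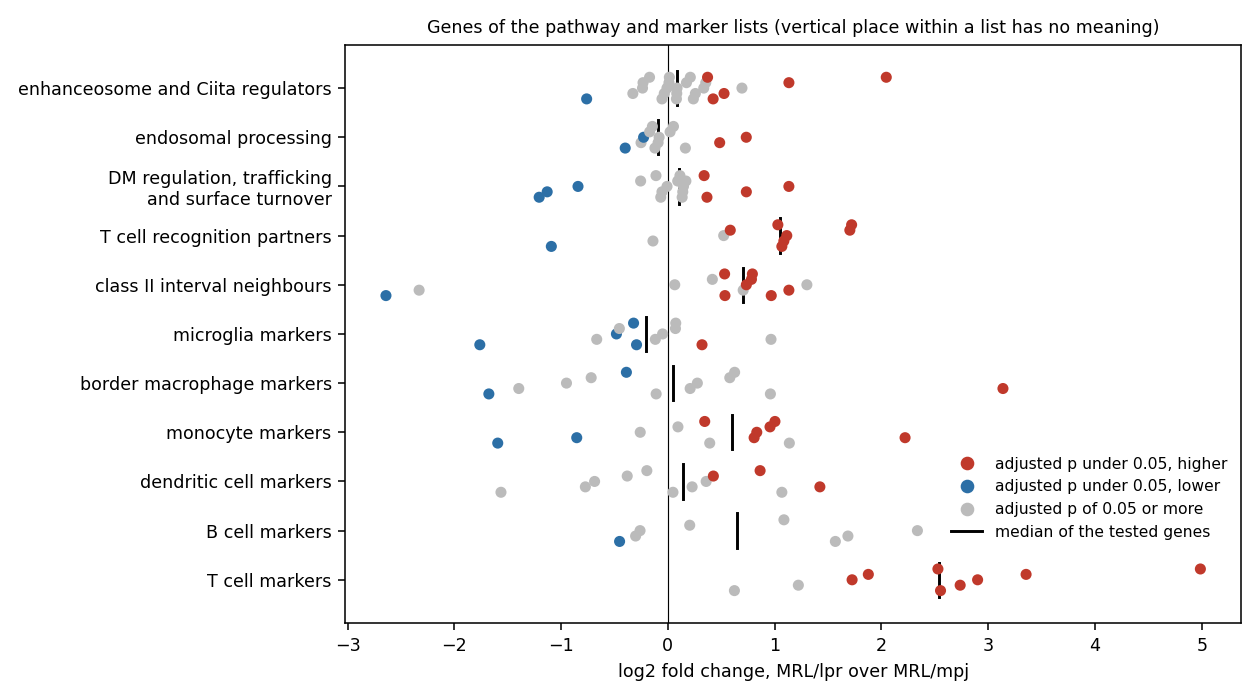
Log2 fold change (MRL/lpr over MRL/mpj) of each tested gene in the 5 gene lists around the class II pathway and the 6 cell type marker lists, coloured by the call of edgeR's test, with a bar at the median. The medians of T cell recognition partners (1.05) and T cell markers (2.54) lie farthest to the right, and endosomal processing (-0.09) lies near 0.

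All members except Cd74 and Ciita lie in the class II interval of chromosome 17, taken here from Col11a2 to Btnl2 (chr17:34039437-34369495 in GENCODE M21 on GRCm38, 27 genes). Of the 19 neighbours in it that are no members, 13 were tested, and 7 were called higher and 1 lower (2 lower without MRL/lpr replicate 3), with a median log2 fold change of 0.70. Besides H2-Ob and H2-Oa, the higher genes were Tap1 (0.97) and Tap2, which carry peptides to class I molecules, the immunoproteasome genes Psmb8 (0.79) and Psmb9, and Brd2, a chromatin reader. Within 1 Mb on either side of the interval, a distance picked after the values were seen, 109 genes outside it were tested. Of these, 23 were called higher and 8 lower, or 28.4%. Of the tested neighbours inside the interval 61.5% were called. Among all genes tested 11.1% were called higher and 9.06% lower.

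Within the interval, the largest differences in opposite directions lay side by side. H2-Eb2, H2-Ea-ps and Btnl2 are next to each other at 1 end of the interval, 68.0, 84.3 and 97.1 kb from the start of H2-Ab1, and their log2 fold changes were -5.70, 4.66 and -2.64. Btnl2, a butyrophilin-like gene that dampens T cells, had 29, 23 and 15 counts in MRL/lpr and 145, 160 and 165 in MRL/mpj. At the far end of the interval Col11a2, a collagen gene, was not called, at 0.06 (standard error 0.16). Large differences also lay beyond both ends, in genes named after their values were seen. They were Gm4134 (-8.75) and H2-K1 (1.44) on the side of Col11a2, and Msh5 (2.74) and H2-Q1 (-1.83) on that of Btnl2. Of the 109 genes tested there, 78 were not called. All libraries were counted against 1 reference genome, and class II genes are among the most variable of the mouse. Whether both groups carry the same class II haplotype, and whether alleles that differ from this reference gained or lost counts, was not tested. The fold changes and chain ratios of the class II genes of chromosome 17 hold for the counts as made against that reference.

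**Figure D5:**
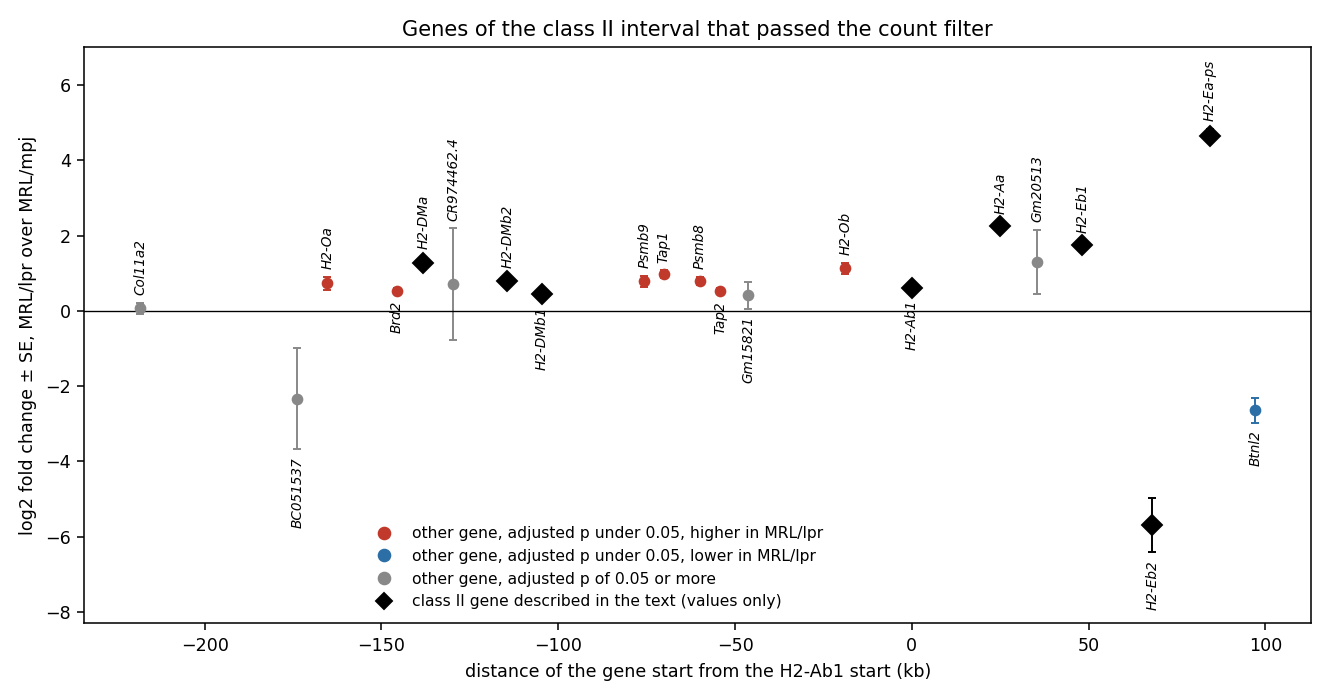
Log2 fold change with its standard error of the interval's genes that passed the count filter, against the distance of each gene start from that of H2-Ab1 in kb; diamonds are the class II genes, circles their neighbours. Most genes lie between 0 and 2.3, H2-Eb2, H2-Ea-ps and Btnl2 stand apart at the right end, and BC051537 (-2.33, standard error 1.35) lies low at the left with few counts.

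Markers of microglia were abundant in all libraries and somewhat lower in MRL/lpr. The 12 microglia markers summed to 24447.5 to 27344 CPM in MRL/lpr and 28869 to 29383 CPM in MRL/mpj, and 1 was called higher and 4 lower. Without MRL/lpr replicate 3 there were 7 lower, and without any 1 MRL/mpj library there were 0 higher. Fcrls fell by 1.76 on the log2 scale and Gpr34 by 0.48. A single library stood apart for Cx3cr1, which had 132706 counts in replicate 2 of MRL/lpr while replicates 1 and 3 had 10645 and 10334, a gene named after its values were seen. Among the class II genes, Cd74, H2-Eb1 and H2-Eb2 also had their highest MRL/lpr value in that library, before and after scaling. H2-Aa and Ciita did so only before scaling, and in CPM they were highest in replicate 3. For H2-Eb2 the count in replicate 2 was 18 beside 0 and 6.

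B cells and dendritic cells are known to be rich in class II, and their markers were detected in both strains. Of 12 B cell markers 8 were tested, and edgeR called 0 higher and 1 lower (Ebf1, at -0.45). At an unadjusted p under 0.05 edgeR had 2 higher, and DESeq2 called 2 higher. Without MRL/mpj replicate 3 edgeR called 1 higher, and without MRL/mpj replicate 2 it called 2 lower. Cr2 was at 0 in all libraries, which again allows up to 3 read pairs in each. The summed level, most of it from Bank1 and Ebf1, was 73.8 to 77.2 CPM in MRL/lpr and 83.4 to 96.6 CPM in MRL/mpj. Another 4 markers are named here after their values were seen. Ms4a1 had 16, 18 and 21 counts in MRL/lpr and 0, 8 and 4 in MRL/mpj, and Cd79a had 76, 63 and 56 against 12, 23 and 39. Both were higher in MRL/lpr without overlap, at under 2 CPM. Cd79b, the partner chain of Cd79a, had 296, 273 and 326 counts against 413, 444 and 396, which overlap once scaled (log2 fold change -0.30, not called), and Fcer2a had 0, 0 and 0 against 8, 12 and 8. The markers thus did not all lean to 1 side, and the part of B cells in the class II difference was not tested.

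Of 12 dendritic cell markers edgeR called 3 higher and 0 lower (2 lower at an unadjusted p under 0.05, and 1 with DESeq2), and their sum was 697 to 808 CPM against 545 to 564 CPM, most of it Fscn1. Itgae rose by 1.42, Ccr7 by 0.86 and Fscn1 by 0.43. Lower only by the unadjusted p were Clec9a, at -1.56, and Flt3, at -0.77, both without overlap. Clec9a had 9, 19 and 19 counts in MRL/lpr and 54, 53 and 52 in MRL/mpj. Zbtb46, at 0.36, was higher by the unadjusted p only. Clec9a, Flt3 and Zbtb46 are named after their values were seen, and the markers did not all lean to 1 side. Of 12 monocyte markers 6 were called higher and 2 lower, with sums of 2092 to 2386 CPM against 1509 to 1568 CPM. Most of the sum came from Nr4a1 (mean 1407 CPM in MRL/lpr and 702 CPM in MRL/mpj) and Fn1 (531 and 497 CPM). Ccr2 (7.10 and 8.49 CPM) and Ly6c2 (24.0 and 18.3 CPM) were not called. Fn1, Ccr2 and Ly6c2 are named after their values were seen. Plac8 rose by 2.22 and Nr4a1 by 1.0, while Chil3 fell by 1.59 on the log2 scale. Of 12 border macrophage markers 1 was called higher (Siglec1, 3.14) and 2 lower (Cbr2, -1.68, and Mrc1, -0.39), with sums of 81.8 to 93.7 CPM against 96.9 to 103 CPM. Without MRL/lpr replicate 3 there were 2 higher and 1 lower, and without any 1 MRL/mpj library 1 lower. The call of Mrc1 was lost without any 1 of the 6 libraries (adjusted p from 0.0614 to 0.159, edgeR).

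T cell markers had the highest median of the marker lists, at a low level. Of 10 markers edgeR called 8 higher and 0 lower (0 lower at an unadjusted p under 0.05 and with DESeq2), and their sum was 24.9 to 31.5 CPM in MRL/lpr and 7.13 to 8.56 CPM in MRL/mpj. Cd3e had 103, 92 and 120 counts against 2, 0 and 9, and rose by 4.99 (standard error 0.78). Trac rose by 3.35 and Cd8a by 2.90. The call of Trac was lost without MRL/lpr replicate 1 (adjusted p = 0.0582, edgeR) or 3 (0.0879) or MRL/mpj replicate 1 (0.0850). Leaving out MRL/lpr replicate 1 brought the list to 5 genes called higher. The part of any of these cell types in the class II difference was not tested.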

How the data were processed

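RNA-seq of microglia was available for 3 MRL/lpr and 3 MRL/mpj libraries. The submitters' processing notes name cutadapt 1.9.3, HISAT2 2.0.4, Cufflinks, Cuffdiff 2.2.1 and the build GRCm38. The deposited table holds raw whole-number counts for each gene. The authors also deposited FPKM for each library, which they scaled by gene length and depth. The counting tool and its strand setting are not given in the sources used here. The labels describe depletion of rRNA, whereas the study's methods describe purified mRNA.

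GENCODE M21 on GRCm38 matched 55141 of 55401 identifiers. The counts were fitted with edgeR 4.0.16 in R 4.3.3 over the 19554 genes that passed filterByExpr (minimum count 10, total 15), with TMM scaling, robust dispersions (common biological coefficient of variation 0.26) and the quasi-likelihood test with Benjamini-Hochberg adjustment. FPKM was used for levels and ratios only. The script was tested on simulated counts. Alternatives were DESeq2 1.42.0, its size factors, library size alone, a minimum of 1 count, counts divided by 4, a replicate block and leaving out each library. Replicate numbers are not said to mark shared litters or days.

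The members and lists were chosen with earlier results of these data known. Besides the members, genes named were up to 4 called genes of largest change per pathway list, fixed pathway genes, markers at 0 and up to 3 called markers per cell type, and the 5 genes most like the members. Promoter windows came from RefSeq. Some genes that this rule picks are not reported here.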

Additional observations from a re-analysis of the deposited data

How the results depend on the processing

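Of 130 values of the members under alternatives, 122 moved by less than the spread between libraries, 8 moved further and 0 changed direction. The values without single libraries are among the 130. Leaving out 1 of 3 libraries can hardly move a value by more than that spread, so they say little about stability. All 10 members kept the strains apart under each scaling, and their median log2 fold change ranged from 1.32 to 1.53. They also did so without each library, but strains apart in all 6 libraries stay apart when 1 is left out. Only a small change of scaling could alter that, so nothing is read from it. Of 264 list counts under alternatives, 227 stayed within 1.5 times the reported count. Scaling by library size alone gave 3 regulators higher and 3 lower, 5 endosomal genes lower, 2 trafficking genes higher, 2 recognition partners lower, 0 microglia markers higher, 2 B cell markers lower and 1 dendritic cell marker lower. DESeq2 gave 2 regulators lower, 2 B cell and 2 border macrophage markers higher and 1 dendritic cell marker lower. Counts divided by 4 gave 1 B cell and 2 border macrophage markers higher and 1 dendritic cell marker lower. The cause was not tested.

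Without single libraries, the counts ranged from 4 to 6 regulators higher and 1 to 3 lower, 1 to 4 endosomal genes lower, 2 to 5 trafficking genes higher, 0 to 1 microglia markers higher and 4 to 7 lower, 0 to 1 B cell markers higher and 1 to 2 lower, 1 to 2 border macrophage markers higher and 1 to 2 lower, 5 to 7 T cell markers higher and 1 to 2 interval neighbours lower. Ctss (-0.069) and Lgmn (-0.102) changed sign with library size alone, and Ctsl without MRL/lpr replicate 3 (0.012, the highest of its values without single libraries, the lowest being -0.131). Of 576 values of named list genes, 541 kept direction and call, 26 lost the call and 6 gained it.

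With the replicate block, 1754 of 19554 genes were called higher and 1309 lower, against 2178 and 1772 without it, and 0 microglia markers were higher and 1 border macrophage marker lower. Same-numbered libraries did not deviate together (correlations of -0.115, -0.150 and -0.174 over 9298 genes), and no library correlated best with its own number. No pairing by number was thus seen. Whether equal numbers share a litter or day was not tested. In the block, the calls of Mrc1 (adjusted p = 0.0535, edgeR) and Trac (0.0963) were lost and that of Irf1 gained (0.0485).

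Depth limits H2-Eb2 in MRL/lpr, Ciita and the B and T cell markers most.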
